A study of Mus musculus with 6 samples.

Results

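The 10 genes described here encode plasma proteins that the liver secretes and that carry other molecules in the blood. They are albumin (Alb, ENSMUSG00000029368), transthyretin (Ttr, ENSMUSG00000061808), transferrin (Trf, ENSMUSG00000032554), vitamin D binding protein (Gc, ENSMUSG00000035540), fetuin-A (Ahsg, ENSMUSG00000022868), the alpha-1-microglobulin and bikunin precursor (Ambp, ENSMUSG00000028356), retinol binding protein 4 (Rbp4, ENSMUSG00000024990), haptoglobin (Hp, ENSMUSG00000031722), hemopexin (Hpx, ENSMUSG00000030895) and ceruloplasmin (Cp, ENSMUSG00000003617). They were chosen by gene identity, as a list of Ensembl identifiers paired with symbols, and not by their values. Earlier results of these data were known when the choice was made. All 10 were listed among the 8941 genes of the deposited tables, and all 10 passed the filter used for testing, a mean of at least 1 RPKM. The pairing of identifiers and symbols was that of the list, since neither the deposited tables nor the reference gene table used here links Ensembl identifiers to names.

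The values are disome footprints, the pieces of messenger RNA shielded from nuclease by ribosomes that have run into each other. The livers came from male C57BL/6JRj mice, an inbred strain, aged 11 to 12 weeks and held under 12 h of light and 12 h of darkness per day. Groups were ZT0, ZT2 and ZT12, where zeitgeber time (ZT) counts hours from lights on, with 2 libraries each, and all groups shared the same strain, sex and lysis in cycloheximide, which stops elongation. Each library pooled 2 livers, so that n counts pools and differences between animals within a pool are not seen. Levels are given as RPKM, reads per kilobase of gene model scaled per library, so that they can be set against each other between genes. They are disome levels as such, set against neither messenger RNA nor single-ribosome footprints. The p-values set differences between time points against the spread between these pools, an estimate that draws in part on all tested genes.

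Hepatocytes make these proteins on ribosomes bound to the endoplasmic reticulum, fold them there and secrete them. Albumin holds up the osmotic pressure of plasma and binds fatty acids, bilirubin and drugs, while the others have narrower cargo, such as thyroid hormone and retinol, vitamin D, iron, copper, free hemoglobin and free heme. Hp, Hpx and Cp are known as acute phase proteins, whose synthesis goes up in inflammation, whereas Alb, Ttr and Ahsg are known to go down. Alb also has a place in the study of daily rhythms: the transcription factor DBP was named for its binding to the D site of the albumin promoter.

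The bases before the annotated start of 2 of these genes are shown because Alb had the steadiest mean level over the 3 time points and Ambp the largest difference between 2 of them. Both are from the RefSeq promoter table for build GRCm38.p6, which held 7 of the 10 genes (Ttr, Trf and Hp had no entry), and each line gives 250 bases, read in the direction of the gene. Alb lies on the plus strand at chr5:90460620-90460869, and Ambp on the minus strand at chr4:63154173-63154422. Capitals mark matches to any of 6 motifs searched on both strands, namely TTANGTAA (the D box, bound by DBP and its relatives), GTTAAT (part of the HNF1 site), CCAAT (the site of NF-Y), TATAAA (the TATA box), CACGTG (the E box of CLOCK and BMAL1) and TGTTTA (a forkhead core).
Alb: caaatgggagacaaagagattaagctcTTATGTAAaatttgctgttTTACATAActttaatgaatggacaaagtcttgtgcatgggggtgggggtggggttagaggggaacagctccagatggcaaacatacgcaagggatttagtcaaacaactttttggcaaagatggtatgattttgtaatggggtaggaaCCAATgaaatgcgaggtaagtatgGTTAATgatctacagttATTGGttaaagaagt
Ambp: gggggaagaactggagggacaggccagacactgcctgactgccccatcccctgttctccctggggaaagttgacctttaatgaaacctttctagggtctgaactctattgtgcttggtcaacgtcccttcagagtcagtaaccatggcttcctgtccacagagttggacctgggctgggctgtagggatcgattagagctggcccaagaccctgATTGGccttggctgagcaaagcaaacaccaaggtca
In the Alb window the D box letters stood 2 times, once on each strand, at 223 to 216 and at 204 to 197 bases before the start. Only full matches to these letters were marked, so a site that departs from them, such as a stretch like ttttgtaa, stays in small letters. Whether either match is the D site that gave DBP its name was not tested. Among all 32851 promoter windows of that length, 2.06% held a D box, 6.43% the HNF1 letters, 33.8% a CCAAT box, 12.4% a TATA box, 6.02% an E box and 12.0% a forkhead core. Of the 7 genes with an entry, 1 held a D box (Alb), 3 the HNF1 letters (Alb, Gc and Cp), 6 a CCAAT box (all but Ahsg), 2 a TATA box (Rbp4 and Cp), 0 an E box and 1 a forkhead core (Rbp4). Rbp4 and Cp had 2 entries each and count where either matched. No overlap between different motifs occurred in the 2 windows printed, and a match is a run of letters, not a measured binding site.

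Depth was 6346387 to 12322651 recovered reads per library, in which the median gene of each library lay between 7.21 and 7.55 RPKM. Between 4 and 250 genes were listed at 0 per library, the most in ZT2 replicate 2, and the 10 genes were above 0 in every library. Their read numbers ran from 683 for Trf to 504124 for Alb. For Trf, the counting intervals of the 2 replicates overlapped at ZT0 and at ZT2, as did those of Gc at ZT0 and of Ambp at ZT12. Replicates of the tested genes differed most at ZT2, where the median SD on the log2(RPKM + 1) scale was 0.28, beside 0.13 at ZT0 and 0.19 at ZT12. For the 10 genes the median SD was 0.10 (ZT0), 0.12 (ZT2) and 0.099 (ZT12). Of the hepatocyte markers listed for the check of tissue, Alb and Ttr could be read and both stood among the 9 highest genes of every library. The markers of other cell types could not be matched to identifiers, so the share of other cells was not tested. In bulk liver, fewer cells making a protein, less RNA per cell and fewer disomes per RNA cannot be told apart.

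The level of these genes spanned more than 3 orders of magnitude, from Ttr with a mean of 60762 RPKM ± 18188 to Trf with 47.5 RPKM ± 13.03 (SD, n = 6 each). Over all listed genes the median of the mean level was 7.47 RPKM, and over the 10 it was 2597 RPKM. Of the 126 genes with a mean above 1000 RPKM, 8 belonged to the list, and Ttr and Alb stood well above the other 8. Their means ranked the genes in the order Ttr, Alb, Hp, Ahsg, Gc, Rbp4, Hpx, Ambp, Cp and Trf, at places 2, 8, 41, 46, 51, 61, 73, 110, 385 and 1616 of all listed genes. Neighbours at either end of this order kept it in every library (6 of 6), namely Ttr above Alb, Alb above Hp, Hpx above Ambp, Ambp above Cp and Cp above Trf. In the middle the order was not fixed: Hp exceeded Ahsg in 3 of 6 libraries, Ahsg exceeded Gc in 4, Gc exceeded Rbp4 in 5 and Rbp4 exceeded Hpx in 4.

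**Figure D1:**
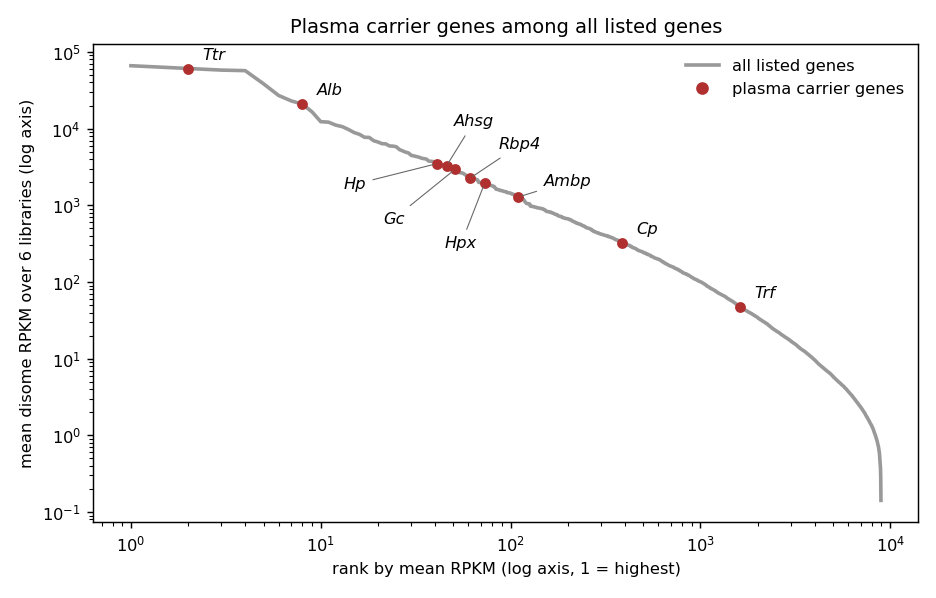
Mean disome RPKM of every listed gene over 6 libraries against its rank, both on log axes, with the 10 plasma carrier genes as red points. Ttr at rank 2 and Alb at rank 8 sit at the top, 6 genes lie close together between ranks 41 and 110, and Cp at rank 385 and Trf at rank 1616 lie apart.

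Ttr binds thyroxine and, as a tetramer, holds Rbp4 with its retinol in the circulation. It had 53535 and 45369 RPKM in the ZT0 libraries, 86801 and 80764 in those of ZT2 and 51557 and 46547 in those of ZT12. Both ZT2 libraries stood above all others, while the ZT0 and ZT12 libraries overlapped. Ttr was between rank 2 and rank 4 in every library and held 4.17% to 7.30% of all summed RPKM. The coding length recovered from its values was 441 nucleotides, the shortest of the 10, and by reads rather than RPKM it held 1.97% to 3.72% of a library.

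Alb, with 1824 coding nucleotides, had 21110 and 22695 RPKM in the ZT0 libraries, 19230 and 21373 in those of ZT2 and 18613 and 22386 in those of ZT12. All 3 time points overlapped, and the highest library exceeded the lowest 1.22-fold, the smallest such ratio among the 10. Alb held 1.62% to 2.19% of summed RPKM at rank 6 to 9, and 3.41% to 4.23% of reads. Per length Ttr was above Alb in every library, by 2.00-fold in ZT0 replicate 2 up to 4.51-fold in ZT2 replicate 1. In reads, Alb exceeded Ttr in all libraries but ZT2 replicate 1, where 216528 reads fell on Alb and 236303 on Ttr.

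Together the 10 genes held 8.83% ± 1.17 of summed RPKM and 8.30% ± 0.607 of recovered reads (SD, n = 6 each). The share of summed RPKM was 8.35% and 8.09% in the ZT0 libraries, 10.3% and 10.4% in those of ZT2 and 7.92% and 7.996% in those of ZT12. Both ZT2 libraries were above the rest, and those of ZT0 lay just above those of ZT12. Of reads, the 10 genes took 7.99% (95% exact Clopper-Pearson interval 7.97 to 8.01) and 8.32% (8.30 to 8.34) at ZT0, 8.97% (8.95 to 8.99) and 9.06% (9.04 to 9.09) at ZT2, and 7.54% (7.53 to 7.56) and 7.93% (7.92 to 7.95) at ZT12. These intervals cover counting error only. Alb and Ttr made up 77.4% to 87.2% of the summed RPKM of the 10. Without them, the other 8 genes had a share of 1.54% and 1.83% in the ZT0 libraries, 1.34% and 1.33% in those of ZT2 and 1.203% and 1.26% in those of ZT12. The higher total at ZT2 thus lay in Ttr. For those 8, the libraries of each later time point lay below all libraries of the time point before.

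**Figure D2:**
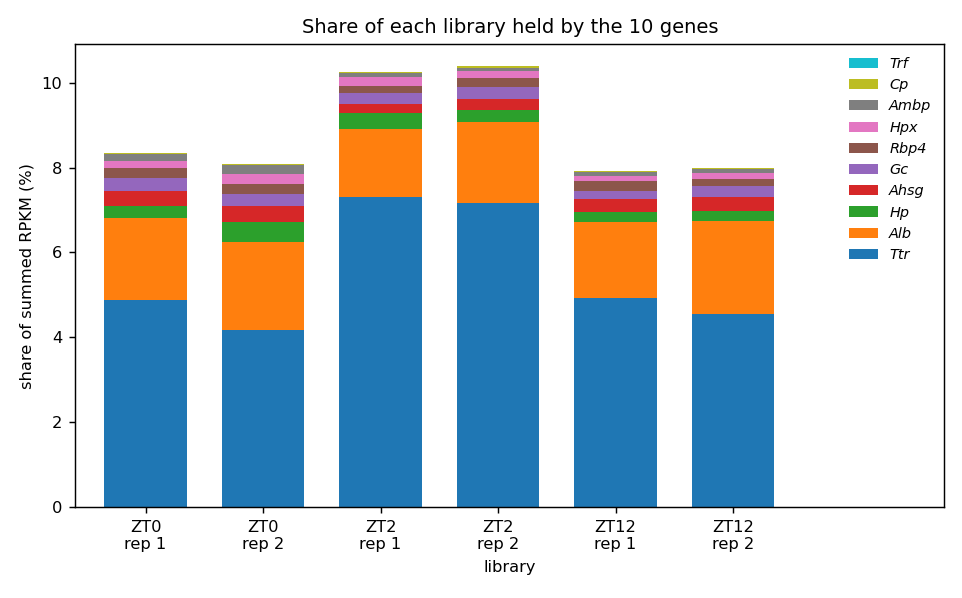
Share of summed RPKM in percent held by each of the 10 genes, stacked, in each of the 6 libraries. The bars of ZT2 reach 10.3% and 10.4%, against 7.92% to 8.35% in the other libraries, and the Ttr segment is the one that is taller.

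The first comparison set ZT2 against ZT0, the 2 h after lights on. None of the 10 genes passed limma's test at an adjusted p of 0.05 (0 of 10), where 0.0239% of all tested genes passed. An unadjusted limma p under 0.05 was found for 3 of 10, against 13.7% of all tested genes: Ttr was higher at ZT2, as were 5.4% of tested genes, and Ahsg and Ambp were lower, as were 8.27%. Libraries did not overlap for 4 of 10 genes, which were these 3 and Cp, higher at ZT2, against 46.4% of all tested genes (21.5% higher and 24.9% lower). The median log2 change was -0.09 over the 10 genes and -0.04 over all genes tested. The change lay below 0 for 8 of 10, against 53.6% of all tested genes, though with quantile normalization Alb and Gc turned above 0. In that scaling rank alone sets a value, and Alb was at ranks 6 and 8 at ZT2 and at rank 8 in both ZT0 libraries.

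Ttr averaged 83782 RPKM ± 4269 at ZT2 and 49452 RPKM ± 5774 at ZT0 (SD, n = 2 each), 1.69-fold higher. Its log2 change was 0.76 ± 0.21 (SE) by limma, whose adjusted p was 0.228. With quantile normalization the log2 change was 0.13 and the limma adjusted p 0.835. That scaling ties the highest ranks of all libraries to the same values. Ttr stood at ranks 2 to 4 throughout, so the size of its change cannot show there. Rbp4, its partner in plasma, averaged 2241 RPKM ± 224 at ZT2 and 2484 RPKM ± 194 at ZT0 (SD, n = 2 each), with overlapping libraries and a limma adjusted p of 0.755. The ratio of Ttr to Rbp4, which a scaling by 1 factor per library leaves as it is, was 41.7 and 33.7 at ZT2 and 20.4 and 19.3 at ZT0.

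Ambp encodes a precursor that is cut into alpha-1-microglobulin, a small carrier of heme and retinoids, and bikunin, a protease inhibitor. It had 1657 and 2124 RPKM in the ZT0 libraries, 1135 and 921.4 in those of ZT2 and 918.4 and 949.4 in those of ZT12. Both ZT0 libraries were above the other 4. Between ZT2 and ZT0 its log2 change was -0.87 ± 0.19 (SE), the smallest p of the 10 in this comparison at rank 95 of all tested genes, with a limma adjusted p of 0.191.

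Ahsg, a carrier of calcium phosphate that keeps it from precipitating, had 3769 and 4133 RPKM in the ZT0 libraries, 2518 and 2715 in those of ZT2 and 3122 and 3372 in those of ZT12. No 2 time points overlapped, with ZT2 lowest and ZT0 highest. Its log2 change between ZT2 and ZT0 was -0.59 ± 0.16 (SE) by limma, whose adjusted p was 0.213. Replicates of Ahsg were close, at 1.10-fold in ZT0, and 1.08-fold in both ZT2 and ZT12.

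Cp, a copper-carrying ferroxidase, had a recovered length of 3272 nucleotides, which is not a multiple of 3 and so may not be that of 1 coding sequence. Its level per length and its rank rest on that length. Cp was the mildest of the 4, with 306.6 and 332.3 RPKM in the ZT0 libraries, 365.9 and 387.9 in those of ZT2 and 268.7 and 294.5 in those of ZT12. Its 3 time points did not overlap, with ZT2 highest, and its log2 change between ZT2 and ZT0 was 0.24 ± 0.15 (SE) by limma, whose adjusted p was 0.518, and it was 0.16 with equal summed RPKM. The direction of Ttr and Cp was thus opposite to that of Ahsg and Ambp in the same libraries.

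**Figure D3:**
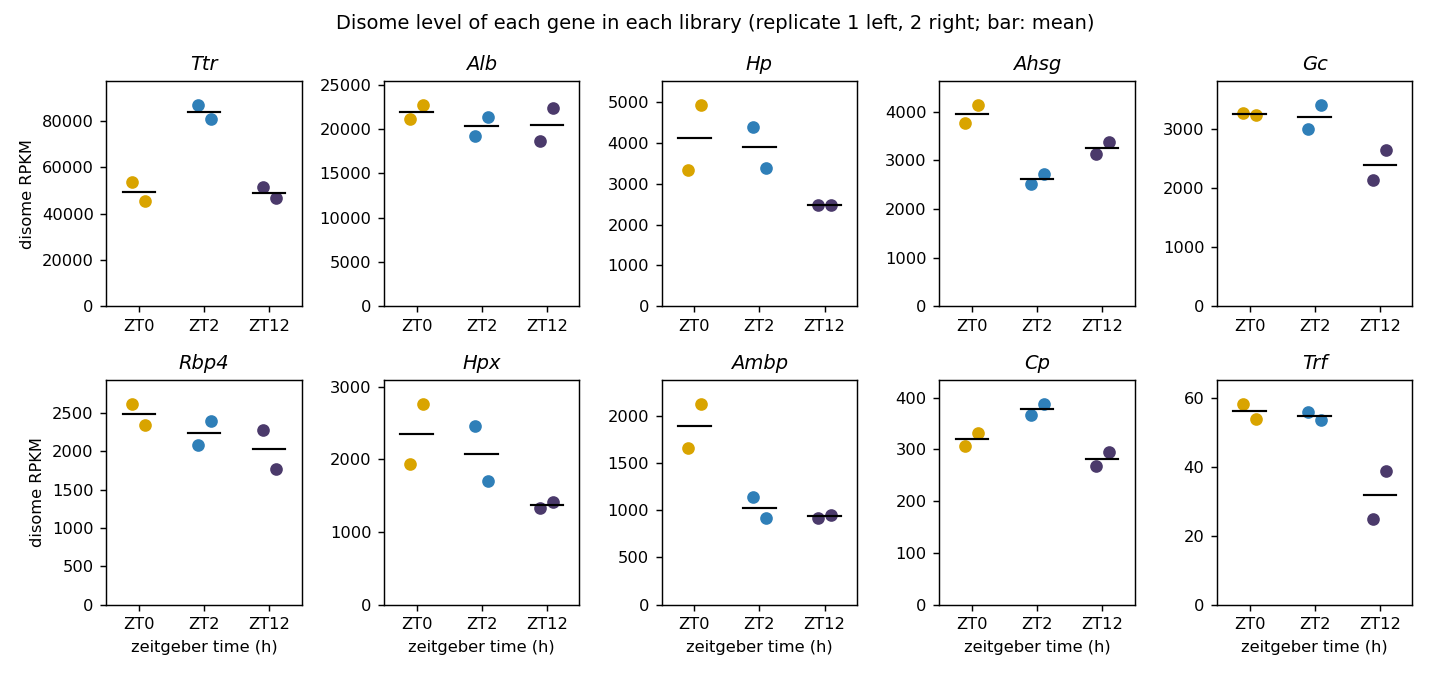
Disome RPKM of each gene in each library, on linear axes from 0, with replicate 1 left and replicate 2 right of each time point and a bar at their mean (n = 2). Ttr stands out at ZT2 and Ambp at ZT0. Hp, Hpx, Gc, Trf and Cp have both ZT12 libraries below all others, while Alb overlaps at all times.

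The second comparison set ZT12, the start of the dark phase, against ZT0, the start of the light phase. Again 0 of 10 genes passed limma's adjusted p of 0.05, against 0.946% of all tested genes (0.395% higher and 0.551% lower). An unadjusted limma p under 0.05 was found for Ambp, Trf, Hpx, Hp and Gc, 5 of 10, against 14.5%. All 5 were lower at ZT12, against 8.34% of all tested genes lower and 6.14% higher. Libraries did not overlap for 8 of 10 genes, all lower at ZT12, against 27.8% of tested genes lower, 26.6% higher and 54.4% either way. Alb and Ttr were the other two, with overlapping libraries. The log2 change was below 0 for 10 of 10 genes and above 0 for 0, against 50.8% and 49.2% of all tested genes, and its median was -0.38 over the 10 genes, -0.01 over all tested genes and -0.07 over the 126 genes with a mean above 1000 RPKM. With every library scaled to the same summed RPKM, Ttr turned to a log2 change of 0.07 and the other 9 stayed below 0. With quantile normalization Ttr was at 0, a value fixed by its ranks, which were 2 and 4 at both time points. These median values describe a list and carry no test.

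Ambp came closest to the threshold. It averaged 933.9 RPKM ± 21.9 at ZT12 and 1890 RPKM ± 330 at ZT0 (SD, n = 2 each), a ratio of 0.494. The log2 change was -1.01 ± 0.19 (SE) by limma, whose adjusted p was 0.065. Under 6 of 18 alternatives it passed, at a limma adjusted p between 0.0085 with voom on recovered reads and 0.046 with a filter at 5 RPKM. The share of tested genes called was 2.32% with that filter, 3.38% on the 4 libraries compared, 4.96% with array weights, 3.39% with voom, 3.39% without ZT2 replicate 1 and 3.38% without ZT2 replicate 2. At an adjusted p of 0.1, Ambp passed along with 2.14% of tested genes. Over all alternatives its limma adjusted p reached up to 0.571, without ZT0 replicate 2, and the log2 change lay between -1.18 and -0.83. It passed without either ZT2 library, at 0.031 without ZT2 replicate 1 or 2, and with array weights, which gave the ZT2 libraries a weight of 0.473 against 2.09 for those of ZT0. Wherever 1 library is left out, its time point holds a single library, which is assumed to vary like the other time points.

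Hp binds free hemoglobin and Hpx binds free heme, so that iron from broken red cells is not lost. Hp had 3334 and 4925 RPKM in the ZT0 libraries, 4389 and 3391 in those of ZT2 and 2483 and 2475 in those of ZT12. Hpx had 1939 and 2766 RPKM in the ZT0 libraries, 2459 and 1700 in those of ZT2 and 1328 and 1412 in those of ZT12. For both genes, both ZT12 libraries were below the other 4, and the replicates of ZT0 and of ZT2 stood apart. The log2 change between ZT12 and ZT0 was -0.71 ± 0.23 for Hp and -0.76 ± 0.24 for Hpx (SE), with limma adjusted p of 0.239 and 0.230. Their size varied with the ZT0 library used: without ZT0 replicate 1 they were -0.99 for Hp and -1.01 for Hpx, and without ZT0 replicate 2 they were -0.43 and -0.50.

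Replicate 2 was 1.48-fold of replicate 1 for Hp and 1.43-fold for Hpx at ZT0, 0.773-fold and 0.691-fold at ZT2, and 0.996-fold and 1.06-fold at ZT12. The replicates thus differed the same way in both genes at ZT0 and ZT2, but not at ZT12, where they lay close together. The ratio of Hp to Hpx stayed between 1.72 and 1.99 in the 6 libraries, while Hp itself spanned 1.99-fold and Hpx 2.08-fold. Among the 45 pairs of the 10 genes, this ratio had the smallest SD on the log2 scale, 0.078, ahead of Gc to Cp at 0.16 and Alb to Cp at 0.21. The widest was Ttr to Ambp, at 0.77, with ratios of 32.3 and 21.4 in the ZT0 libraries, 76.5 and 87.7 in those of ZT2 and 56.1 and 49.0 in those of ZT12. The pair was picked from the 45 after these values were seen, and no test was made of it.

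**Figure D4:**
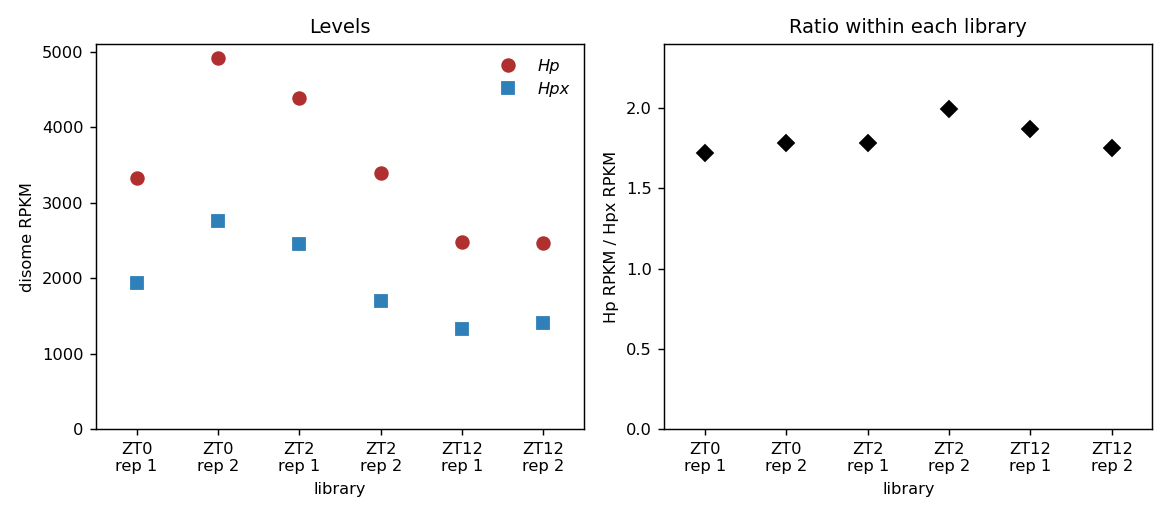
Left, disome RPKM of Hp (circles) and Hpx (squares) in each of the 6 libraries. Right, the ratio of Hp to Hpx within each library, which lay between 1.72 and 1.99, while the levels on the left spanned 1.99-fold and 2.08-fold.

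Trf, the iron carrier that delivers iron to cells through the transferrin receptor, was the lowest of the 10 in every library. It had 58.3 and 54.0 RPKM in the ZT0 libraries, 55.8 and 53.5 in those of ZT2 and 24.9 and 38.7 in those of ZT12, from 683 to 1000 reads. Both ZT12 libraries lay below the other 4, but they differed 1.55-fold between themselves. Trf ranked 1450 to 1513 of 8941 genes at ZT0 and ZT2, and 2371 and 1793 at ZT12. The log2 change between ZT12 and ZT0 was -0.83 ± 0.24 (SE) by limma, whose adjusted p was 0.177, and it was -1.14 without ZT12 replicate 2 and -0.52 without ZT12 replicate 1. The mean of Cp, next in the order, was 6.86 times that of Trf, and that of Alb 440 times. How reads with several matches were counted is not given in the sources used, so reads lost from Trf cannot be told from a low level.

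Gc, which carries vitamin D metabolites and scavenges actin, belongs to the same gene family as Alb and lies on chromosome 5 as Alb does. It had 3259 and 3240 RPKM in the ZT0 libraries, 2992 and 3400 in those of ZT2 and 2135 and 2638 in those of ZT12. The ZT12 libraries were below the other 4, with a log2 change from ZT0 of -0.45 ± 0.18 (SE) by limma, whose adjusted p was 0.301, and -0.30 without ZT12 replicate 1. The ratio of Alb to Gc was 6.48 and 7.004 in the ZT0 libraries, 6.43 and 6.29 in those of ZT2 and 8.72 and 8.49 in those of ZT12. It was thus highest at ZT12, and a scaling by 1 factor per library leaves it as it is. Alb itself averaged 20500 RPKM ± 2668 at ZT12 and 21903 RPKM ± 1121 at ZT0 (SD, n = 2 each). The log2 change was -0.10 ± 0.20 (SE) by limma, whose adjusted p was 0.864.

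Rbp4, the plasma carrier of retinol, had 2621 and 2347 RPKM in the ZT0 libraries, 2083 and 2399 in those of ZT2 and 2284 and 1767 in those of ZT12. Its ZT12 libraries lay below those of ZT0 and overlapped with those of ZT2, with a log2 change between ZT12 and ZT0 of -0.30 ± 0.19 (SE) by limma, whose adjusted p was 0.519. That change was -0.49 without ZT12 replicate 1 and -0.12 without ZT12 replicate 2. Ttr averaged 49052 RPKM ± 3543 at ZT12 and 49452 RPKM ± 5774 at ZT0 (SD, n = 2 each). The log2 change was -0.01 ± 0.21 (SE).

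The third comparison set ZT12 against ZT2. None of the 10 genes passed limma's adjusted p of 0.05 (0 of 10), where 2.06% of all tested genes passed (1.07% higher and 0.993% lower). An unadjusted limma p under 0.05 was found for Ttr, Trf, Cp, Hp, Gc and Hpx, 6 of 10, against 19.2%. All 6 were lower at ZT12, against 9.17% of all tested genes lower and 10% higher. The libraries did not overlap for 7 of 10 genes, against 45.9% (23.6% higher and 22.3% lower), with these 6 lower and Ahsg higher at ZT12. The log2 change was below 0 for 8 of 10 and above 0 for 2, against 47.7% and 52.3%, though Ambp and Rbp4 turned above 0 with equal summed RPKM and Alb below it with quantile normalization. Its median was -0.42 over the 10 and 0.03 over all tested genes. This comparison shares the ZT12 libraries with the one before and the ZT2 libraries with the first, so the 3 sets of values are not independent of each other.

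Ttr was lower at ZT12, at 0.585 times its ZT2 level, with a log2 change of -0.77 ± 0.21 (SE) by limma, whose adjusted p was 0.117. With voom on recovered reads it passed, at a limma adjusted p of 0.015, where 4.26% of tested genes passed, and with quantile normalization, which ties the highest ranks of all libraries to the same values, its log2 change was -0.13. Trf had a log2 change of -0.79 ± 0.24 (SE) by limma, whose adjusted p was 0.140, and Hp one of -0.64 ± 0.23 (SE) and 0.205. The changes of Hpx, Gc and Cp were -0.58, -0.43 and -0.42, with limma adjusted p between 0.202 and 0.256. The change of Hpx was -0.31 once ZT2 replicate 1 was left out and -0.84 once ZT2 replicate 2 was, that of Gc -0.27 without ZT12 replicate 1, and that of Trf -0.49 without ZT12 replicate 1. With equal summed RPKM, Gc and Cp both had a change of -0.26. Ahsg averaged 3247 RPKM ± 176 at ZT12 and 2616 RPKM ± 139 at ZT2 (SD, n = 2 each). The log2 change was 0.31 ± 0.16 (SE) by limma, whose adjusted p was 0.338, and it was 0.47 with equal summed RPKM. Ambp, Rbp4 and Alb overlapped between these time points.

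**Figure D5:**
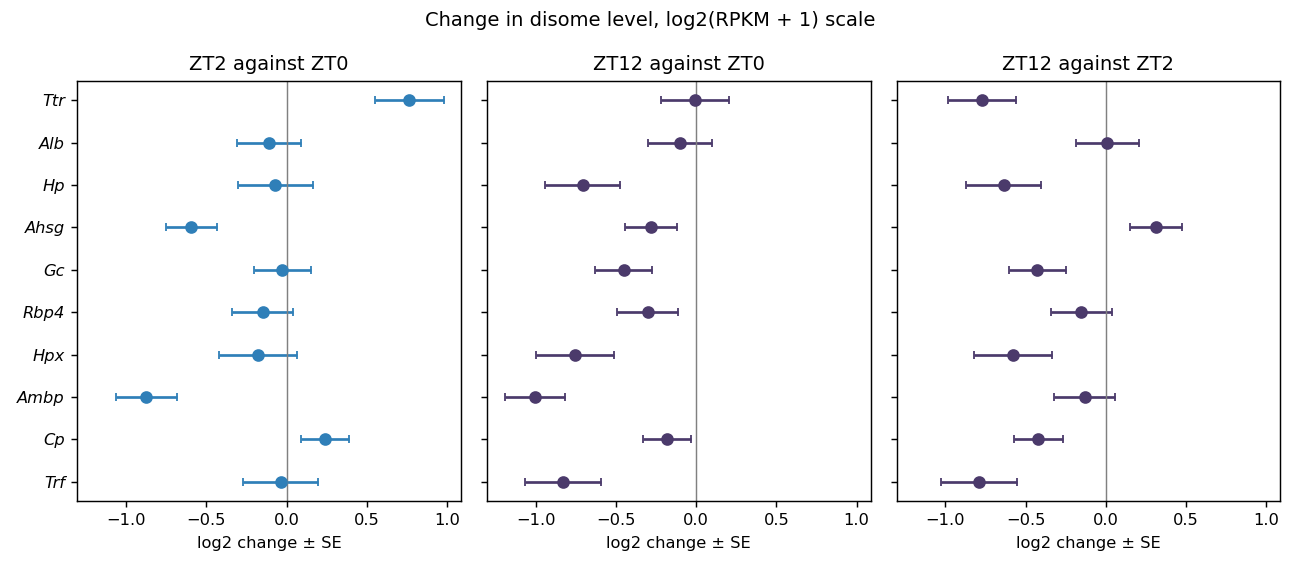
Log2 change of each gene, on the log2(RPKM + 1) scale, with SE from the limma fit (n = 2 libraries per time point), in the 3 comparisons. All 10 points lie below 0 for ZT12 against ZT0, from -0.01 for Ttr (0.07 with equal summed RPKM) to -1.01 for Ambp, and none passed an adjusted p of 0.05.

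Over the 3 time points together, limma's moderated F test called 0 of 10 genes, against 1.26% of all tested genes, and 6 of 10 had an unadjusted p under 0.05, against 18.6%. The smallest adjusted p of the F test were 0.084 for Ambp, 0.154 for Ttr, 0.166 for Trf and 0.184 for Ahsg, and the largest was 0.905 for Alb. At an adjusted p of 0.1 the F test called 1 of 10, against 3.65% of tested genes, with array weights 1 against 2.53%, and with voom 2 against 4.19%. Leaving out ZT2 replicate 1 gave 1 of 10, against 7.32%, and leaving out ZT2 replicate 2 gave 1 of 10, against 4.58%. In both, ZT2 holds 1 library and the spread comes from ZT0 and ZT12 alone. The ratio of the highest to the lowest time point mean was 2.02 for Ambp, 1.76 for Trf, 1.72 for Hpx, 1.71 for Ttr, 1.67 for Hp, 1.51 for Ahsg, 1.36 for Gc, 1.34 for Cp, 1.23 for Rbp4 and 1.08 for Alb.

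The mean course of the 10 genes, each centred on its own mean log2(RPKM + 1), was 0.13 and 0.25 in the ZT0 libraries, 0.12 and 0.05 in those of ZT2 and -0.33 and -0.22 in those of ZT12. Among 118 other genes with a mean above 1000 RPKM, the course most like it was that of ENSMUSG00000038754, with a Pearson's r of 0.96 over 6 libraries. That gene differed far more in size, with 2632 and 2622 RPKM in the ZT0 libraries, 1669 and 1949 in those of ZT2 and 68.3 and 70.5 in those of ZT12. ENSMUSG00000000049 came next, with r of 0.90 and levels of 3335 and 3744 RPKM in the ZT0 libraries, 3408 and 2828 in those of ZT2 and 2582 and 2814 in those of ZT12. These coefficients describe 6 libraries that share their depth and scaling with the 10 genes, and the tables do not name either gene.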

How the data were processed

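Disome footprints of mouse liver were analysed in 6 libraries from 1 table each. The authors deposited RPKM values per gene without a header, and the submitters' processing notes name, with no roles, edgeR, StringTie, STAR, cutadapt, CASAVA 1.82 and Bowtie2 2.3.0, and the builds mm10 and GRCm38.p2. No annotation release, gene filter or rule for reads with several matches is given in the sources used here, so reads shared with copies of a gene may be split or lost. Per the labels' protocols, RNase I (650 U, 45 min) cut the lysates.

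Whole reads were recovered from the steps of the RPKM values (relative tolerance 5e-13, 8940 of 8941 genes directly, 74 of them after a factor shared by all libraries was restored from the length, and 1 through its length). The recovery was tested on simulated data. Recovered lengths were multiples of 3 for 95.16% of genes, those of 9 of the 10 members included and that of Cp not, and are called coding lengths, and the library constants followed the upper quartile of reads. These reads gave depth, shares of reads and 1 alternative test.

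Genes were tested on log2(RPKM + 1) by limma 3.58.1 (R 4.3.3) where their mean reached 1 RPKM (8355 genes), with 1 mean per time point, all 6 libraries, a variance trend and 3 residual degrees of freedom. Adjustment was by Benjamini-Hochberg over all genes tested. The fit was tested on simulated data. Changes of low genes are understated on this scale. Same-numbered libraries deviated together with r of -0.08, -0.02 and 0.02, so no pairing by replicate number was seen over all tested genes. A pairing that touches only some genes could be missed this way. Python 3.11.15 did the rest.

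The members, lists, motifs and alternatives were chosen with earlier results of these data known. Named genes were the 10 members and the 2 other genes above 1000 RPKM whose course was most like theirs. Lists of other carriers, receptors, liver factors and cell type markers, and the protein stretches planned, could not be used, because 0 of 49997 reference genes carried an Ensembl identifier and no protein table was used here.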

Additional observations from a re-analysis of the deposited data

How the results depend on the processing

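With 2 libraries per time point, a fit without 1 of them assumes that the other varies like the remaining groups. Trf had the fewest reads of the 10 genes, 683 to 1000, but its ZT12 replicates differed 1.55-fold, beyond counting error. Their 95% counting intervals were 0.0051% to 0.0060% and 0.0079% to 0.0089% of reads. For ZT12 against ZT0, 1 gene of 10 (Ambp) was called instead of 0 with a filter at 5 RPKM, on the 4 libraries compared, with array weights, with voom and at an adjusted p of 0.1, and 0 to 1 with a library left out. For ZT12 against ZT2 it was 1 with voom (Ttr). The F test called 1 at an adjusted p of 0.1 and with array weights, 2 with voom, and 0 to 1 with a library left out. The replicate block gave 0 in each comparison. Of 540 alternative values of single genes, 513 kept direction and side of the threshold, 7 passed it and 20 turned sign or came to 0. The main fit called 0 of 10 genes, so these 20 could only fall in genes with no call. Quantile normalization, where rank alone sets a value, turned Alb (0.21 in ZT2 against ZT0, -0.23 in ZT12 against ZT2). It also turned Gc (0.033 in ZT2 against ZT0) and put Ttr at 0 in ZT12 against ZT0, as the ranks of Ttr fix. Equal summed RPKM turned Ttr (0.070 in ZT12 against ZT0), Ambp (0.032) and Rbp4 (0.0089), both in ZT12 against ZT2. With it, the median log2 change of all tested genes was -0.11 in ZT2 against ZT0, where the main fit gave -0.04. It was 0.06 in ZT12 against ZT0 (main fit -0.01) and 0.17 in ZT12 against ZT2 (main fit 0.03). Leaving out each library in turn gave ranges across 0. In ZT2 against ZT0 they were -0.093 to 0.017 for Trf, -0.12 to 0.065 for Gc, -0.352 to 0.21 for Hp and -0.446 to 0.087 for Hpx. In ZT12 against ZT0 they were -0.23 to 0.032 for Alb and -0.128 to 0.11 for Ttr. In ZT12 against ZT2 they were -0.12 to 0.143 for Alb, -0.281 to 0.019 for Ambp and -0.339 to 0.031 for Rbp4. Without the highest other gene, the 10 genes held 8.61% (ZT0), 11.2% (ZT2) and 8.43% (ZT12) of summed RPKM, and of reads they held 9.02% (ZT2) and 7.74% (ZT12). What lies behind each shift was not tested.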
